A study of Mus musculus with 6 samples.

Results

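The 34 genes described here encode the enzymes that break glucose down to pyruvate and lactate, those that build glucose in the proximal tubule, and those of the pentose phosphate pathway. They were chosen by name, with earlier results of these data known. They were found in the gene tables by Ensembl ID, and all 34 were among the 57180 genes listed. All 34 also passed a filter on low counts that left 18092 genes for testing. Kidneys came from 6 wildtype male C57BL/6J mice housed on standard chow. The mice were obtained at 7 weeks of age, and an age at kidney collection is not given here. The nanoplastic group of 3 mice received cationic polystyrene nanoparticles by mouth at 200 mg/kg once daily for 6 weeks, and the vehicle group of 3 mice received deionized water (0 mg/kg). Each kidney gave 1 library of total RNA, so the spread within a group is a spread between mice. The series title concerns mitochondrial dysfunction, inflammation and senescence of renal tubular epithelium, and the comparison sets kidneys after 6 weeks of nanoplastic against kidneys after water.

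The kidney both makes and burns glucose. Proximal tubule cells of the cortex make glucose from lactate, glutamine and glycerol and use little of it, since they draw on fatty acids and other fuels, while the distal nephron and the medulla carry most of the glycolytic activity. Glycolysis and gluconeogenesis share their reversible steps and are separated by steps with enzymes of their own. These are hexokinase, phosphofructokinase and pyruvate kinase on the way down. On the way up they are fructose bisphosphatase, PEP carboxykinase, pyruvate carboxylase and the glucose phosphatase. The pentose phosphate pathway diverts glucose phosphate to produce NADPH and ribose phosphate.

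Sequencing gave 19408534 to 26292760 expected counts per library, and the 34 genes together took 0.834% to 0.942% of them. Levels are given as CPM, the count scaled to library size, with library sizes adjusted by TMM, a factor that evens out differences in library composition. Summed over 12 proximal tubule markers, such as the endocytic receptor Lrp2 and the phosphate transporter Slc34a1, the level was 19986 to 24016 CPM in nanoplastic and 22406 to 23411 CPM in vehicle mice. The libraries of nanoplastic mouse 1 and vehicle mouse 3 stood apart in fat cell transcripts. Adipoq, the adiponectin gene, had 444, 0 and 2 counts in nanoplastic mice 1, 2 and 3 and 0, 1 and 130 counts in vehicle mice 1, 2 and 3. The sum of 6 adipocyte markers, of which 1 had enough counts to be tested, was 145, 33.4 and 30.7 CPM in nanoplastic mice 1, 2 and 3, against 31.7, 38.6 and 58.5 CPM in vehicle mice 1, 2 and 3. Nanoplastic mouse 1 also had the highest summed level of 5 collecting duct principal cell markers, with 267 CPM, against 152 and 169 CPM in the other nanoplastic mice and 149 to 166 CPM in vehicle mice. Of these markers, Aqp2 measured 149 CPM in nanoplastic mouse 1 and 43.3 to 61.7 CPM in the other mice. Avpr2 was also highest in nanoplastic mouse 1, at 17.1 CPM against 8.85 to 13.7 CPM in the other mice. So was Hsd11b2, at 14 CPM against 10.95 to 13.8 CPM. Aqp3 and Scnn1g in nanoplastic mouse 1 lay within the range of the other mice. The sum of 5 urothelium markers was 17.4 CPM in nanoplastic mouse 1, against 2.5 and 2.86 CPM in the other nanoplastic mice and 1.7 to 5.46 CPM in vehicle mice.

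No gene of the 34 passed the test across all genes. With edgeR's quasi-likelihood test and Benjamini-Hochberg adjustment over 18092 genes, 0 of the 34 had an adjusted p under 0.05, where 0% of all genes did, and the adjusted p of the 34 lay between 0.533 and 0.994. DESeq2 gave an adjusted p for 32 of the 34, all but Hk2 and Pfkfb1, and called 0 of them, beside 0.321% of all genes, and limma-voom called 0, beside 0%. The log2 fold change of nanoplastic over vehicle was below 0 in 22 of the 34 genes and above 0 in 12, where 48% of all genes were below 0. This tally depended on the scaling: with library size alone it was 12 below and 22 above, where 36.2% of all genes were below 0, and with TPM rescaled without the 7SL RNA genes and tested by limma it was 17 and 17, where 41.2% were. The unadjusted edgeR p was under 0.05 in 6 genes, all with lower levels in nanoplastic kidneys: Pfkp, Pgk1, Pgam1, Eno1, Ldha and Ldhd. That is 17.6% of the 34, beside 3.61% of all genes tested in that direction, and 0 of the 34 were higher, beside 3.8%. DESeq2 gave 7 lower genes at that level, beside 2.63% of all genes, and limma-voom 6, beside 3.52%. The count depended on which mice were kept. It was 3 genes, all lower, without vehicle mouse 1 (beside 3.07% of all genes) and 2, both lower, without vehicle mouse 2 (beside 1.9%). Without nanoplastic mouse 3 it was 10, of which 5 were lower (beside 4.36%) and 5 higher (beside 5.1%). In 6 genes, namely Pgk1, Pgam1, Eno1, Ldhb, Ldhd and Rpe, all 3 nanoplastic mice lay below all 3 vehicle mice (17.6%, beside 6.32% of all genes), and in 0 genes did they all lie above (beside 6.54%). The 95% interval of the difference stayed within 1.5-fold in either direction for 30 of the 34 genes, the exceptions being Hk2, Pfkfb1, Pfkfb3 and Pck1. In bulk tissue, fewer cells of a type and less RNA per cell cannot be told apart.

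**Figure D1:**
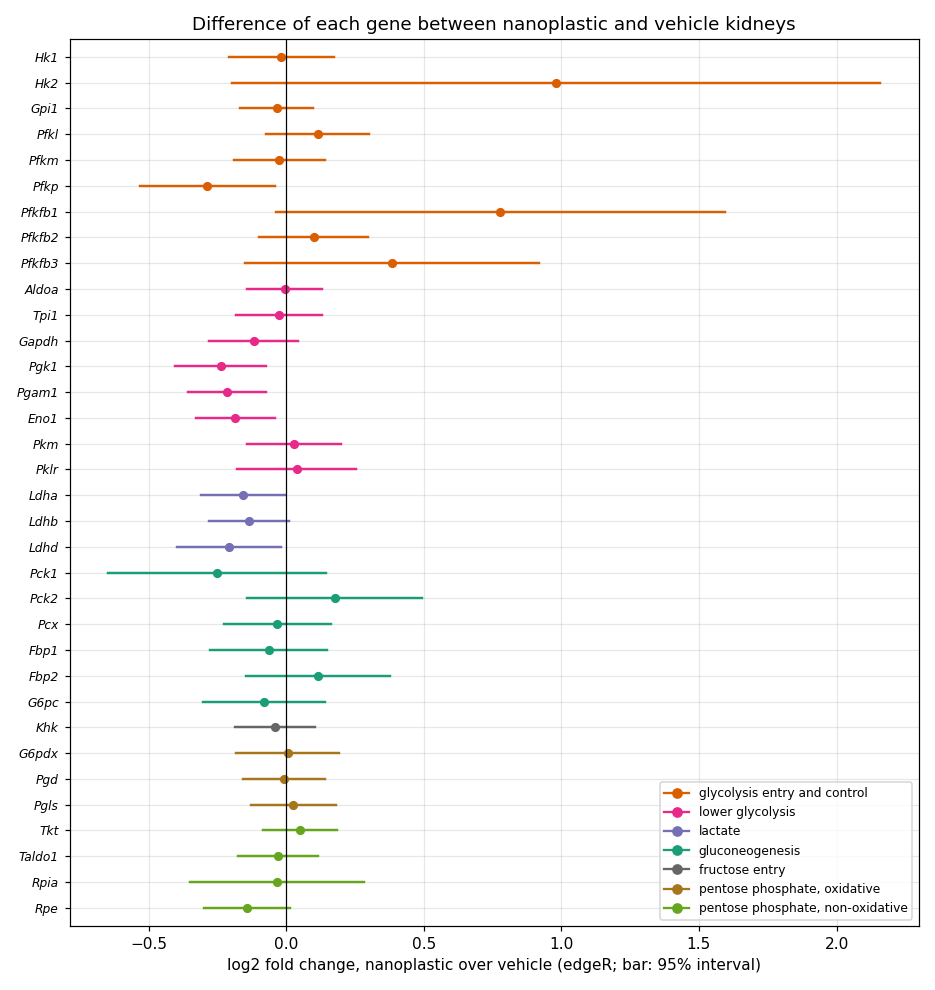
Log2 fold change of nanoplastic over vehicle for each of the 34 genes (edgeR), coloured by role; bars are 95% intervals and the line marks 0. The intervals of Pfkp, Pgk1, Pgam1, Eno1, Ldha and Ldhd stay below 0 before adjustment for multiple tests, and those of Hk2 and Pfkfb1 are the widest.

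The stretches of promoter printed here belong to the 6 genes with an unadjusted p under 0.05 and to Pck1, whose promoter is the textbook case of hormonal control of gluconeogenesis. Each is the 250 bases before the most upstream start listed by RefSeq on build GRCm38.p6, read 5′ to 3′ along the gene. The positions are chr13:6648772-6649021 on the minus strand for Pfkp, chrX:106186850-106187099 on the plus strand for Pgk1 and chr19:41911621-41911870 on the plus strand for Pgam1. They are chr4:150236458-150236707 on the plus strand for Eno1, chr7:46845554-46845803 on the plus strand for Ldha, chr8:111630337-111630586 on the minus strand for Ldhd and chr2:173152823-173153072 on the plus strand for Pck1. Capitals mark ACGTG on either strand, the core of the element bound by hypoxia-inducible factors and a part of the E box CACGTG, and in Pck1 they mark TGACG on either strand, part of the cyclic AMP response element.
Pgk1: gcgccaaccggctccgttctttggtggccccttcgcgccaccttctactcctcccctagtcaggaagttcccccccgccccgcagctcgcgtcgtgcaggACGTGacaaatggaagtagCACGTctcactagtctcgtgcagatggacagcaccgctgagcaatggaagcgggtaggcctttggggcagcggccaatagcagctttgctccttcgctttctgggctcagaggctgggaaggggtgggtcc
Pgam1: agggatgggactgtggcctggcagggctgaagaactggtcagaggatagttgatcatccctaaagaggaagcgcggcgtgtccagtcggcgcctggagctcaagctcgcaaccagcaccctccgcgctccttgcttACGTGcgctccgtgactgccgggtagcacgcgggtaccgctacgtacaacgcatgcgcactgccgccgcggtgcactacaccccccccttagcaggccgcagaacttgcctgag
Eno1: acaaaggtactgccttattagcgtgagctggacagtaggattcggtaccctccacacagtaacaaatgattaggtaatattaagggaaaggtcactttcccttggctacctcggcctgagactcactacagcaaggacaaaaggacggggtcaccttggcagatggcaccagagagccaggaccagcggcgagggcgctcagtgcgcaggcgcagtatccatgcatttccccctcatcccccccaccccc
Pfkp: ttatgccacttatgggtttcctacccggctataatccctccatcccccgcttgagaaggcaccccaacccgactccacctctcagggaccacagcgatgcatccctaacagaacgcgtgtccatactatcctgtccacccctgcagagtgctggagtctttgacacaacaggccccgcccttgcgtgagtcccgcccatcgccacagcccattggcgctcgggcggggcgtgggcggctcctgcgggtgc
Ldha: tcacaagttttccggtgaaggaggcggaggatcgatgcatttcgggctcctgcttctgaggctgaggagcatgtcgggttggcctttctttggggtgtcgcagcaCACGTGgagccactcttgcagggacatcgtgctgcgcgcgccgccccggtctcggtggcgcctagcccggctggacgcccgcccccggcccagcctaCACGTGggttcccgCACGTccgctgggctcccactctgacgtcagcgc
Ldhd: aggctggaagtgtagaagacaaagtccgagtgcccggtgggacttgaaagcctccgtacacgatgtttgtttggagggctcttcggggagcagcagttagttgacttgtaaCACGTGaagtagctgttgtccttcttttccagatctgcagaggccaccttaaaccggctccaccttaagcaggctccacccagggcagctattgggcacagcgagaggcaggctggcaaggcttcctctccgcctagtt
Pck1: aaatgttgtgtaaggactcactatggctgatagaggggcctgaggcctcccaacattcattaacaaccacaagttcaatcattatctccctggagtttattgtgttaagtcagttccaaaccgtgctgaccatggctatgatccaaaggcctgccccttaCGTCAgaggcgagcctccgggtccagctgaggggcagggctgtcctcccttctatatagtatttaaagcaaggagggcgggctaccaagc

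Motifs were counted on both strands of the same window before every listed start. ACGTG lay before at least 1 listed start of 13 of 34 genes (38.2%), against 18.5% of 27025 genes. Counted by listed start, it was 17 of 53 starts of the 34 genes (32.1%) and 16.6% of all 32851 starts. Every CACGTG is read as ACGTG on both strands, so the 5 matches in the Ldha stretch come from a pair of E boxes and 1 further ACGTG, and the 2 in Ldhd from 1 E box. The Pgk1 stretch has 2 matches, starting 150 and 131 bases before the gene's start, and the Pgam1 stretch has 1, at 114 bases. The stretches of Eno1 and Pfkp have 0, which says only that these letters are not in this window. By gene, CACGTG itself lay before 8 of 34 (23.5%), against 6.86% of all genes. The GC box of the Sp1 family was found as GGGCGG before 24 of 34 (70.6%), against 35.4%, and the CCAAT box as CCAAT before 17 of 34 (50%), against 37.5%. The other motifs were found as TGACG before 9 of 34 (26.5%), against 19.8%, and, for the TATA box, as TATAAA before 3 of 34 (8.82%), against 14.3%. Genes with several listed starts have more windows in which to match. By listed start, the shares for the 34 genes and for all were 15.1% and 6.02% for CACGTG, and 50.9% and 32.7% for GGGCGG. They were 37.7% and 33.8% for CCAAT, 20.8% and 17.8% for TGACG, and 5.66% and 12.4% for TATAAA. The 27025 genes were not limited to those that passed the count filter, and the shares are a description with no test.

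**Figure D2:**
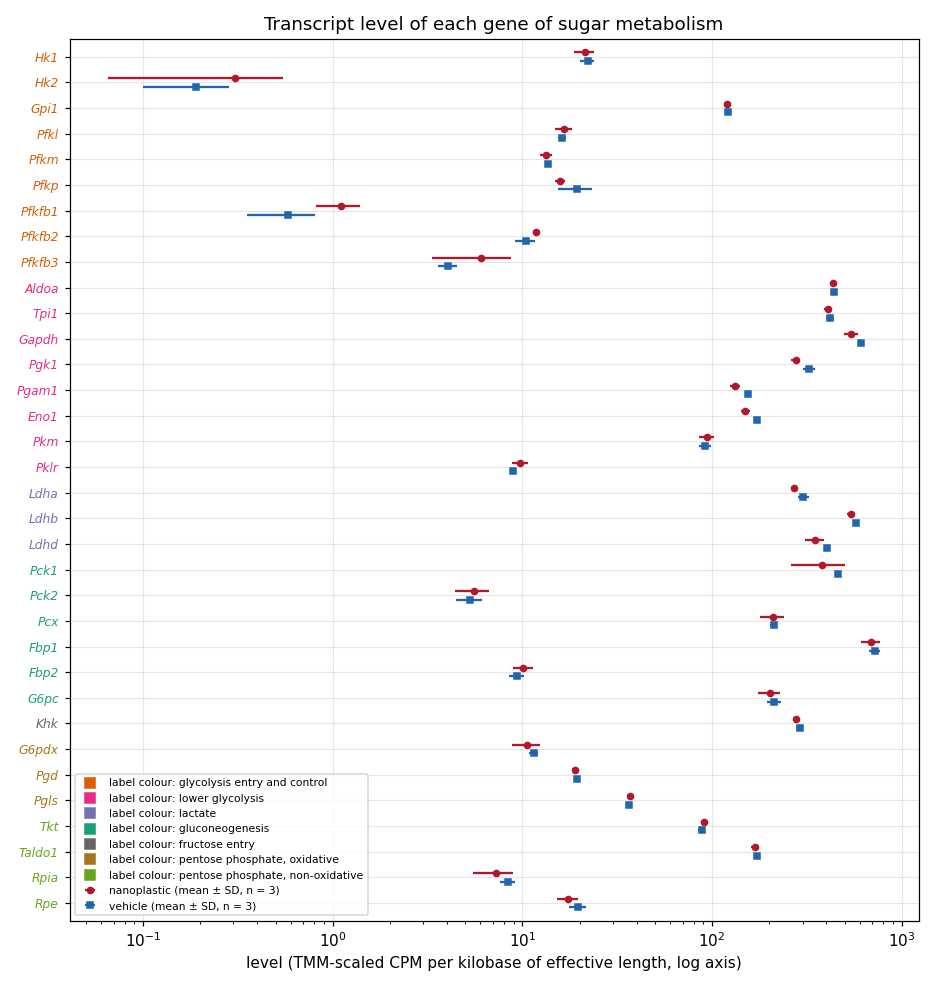
Mean level of each of the 34 genes in nanoplastic (circles) and vehicle (squares) kidneys, as TMM-scaled CPM per kilobase of effective length on a log axis; bars are ± SD over 3 mice and label colours give the role. Levels ran from 0.249 for Hk2 to 702 for Fbp1 as means over the 6 mice.

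Between genes, levels are given as CPM per kilobase of effective length, since longer transcripts collect more reads. Fbp1, the fructose bisphosphatase of liver and kidney, had the highest mean over the 6 mice, 702, with a range of 595 to 769.9. Gapdh followed at 577 (range 499 to 626) and Ldhb at 558 (range 521 to 595), and each overlapped with its neighbour in this order. Aldoa (437), Pck1 (421), Tpi1 (413) and Ldhd (375) came next, and the range of Pck1, 252 to 488, took in the whole ranges of the other 3. Pgk1 (301), Ldha (287) and Khk (283) overlapped with each other, as did Pcx (209.6) and G6pc (207). Taldo1 (171) overlapped with Eno1 (161), and Eno1 with Pgam1 (143), while Gpi1 (121) overlapped with Pgam1 and stood above Pkm (92.7) and Tkt (89.8). Of the entry enzymes of glycolysis other than Gpi1, the hexokinases and phosphofructokinases were far lower, with 21.7 for Hk1, 17.6, 16.4 and 13.5 for the phosphofructokinases Pfkp, Pfkl and Pfkm, and 0.249 for Hk2. The oxidative pentose phosphate genes were low too, with 36.6 for Pgls, 19.2 for Pgd and 11 for G6pdx.

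In lower glycolysis, the stretch from aldolase to pyruvate kinase, 6 of 8 genes had a negative log2 fold change and 2 a positive one, with a median of -0.072, beside a median of 0.0068 over all genes tested. With library size alone 4 of the 8 were negative. Pgk1 (ENSMUSG00000062070), phosphoglycerate kinase, which makes ATP directly from a glycolytic intermediate, measured 419.7, 453 and 468 CPM in nanoplastic mice 1, 2 and 3, against 543, 554 and 485 CPM in vehicle mice 1, 2 and 3. All 3 nanoplastic mice were below the lowest vehicle mouse, and the mean was 15.2% lower in nanoplastic mice (log2 fold change -0.24 with SE 0.075 and edgeR adjusted p = 0.541). Pgam1 (ENSMUSG00000011752), the phosphoglycerate mutase of the following step, measured 193, 207 and 216 CPM in nanoplastic mice 1, 2 and 3, against 234, 247 and 235 CPM in vehicle mice 1, 2 and 3. The groups did not overlap and the mean was 13.8% lower in nanoplastic mice (log2 fold change -0.21 with SE 0.065 and edgeR adjusted p = 0.533). Eno1 (ENSMUSG00000063524), alpha-enolase, which forms phosphoenolpyruvate, measured 272, 277 and 248 CPM in nanoplastic mice 1, 2 and 3, against 301, 309 and 296 CPM in vehicle mice 1, 2 and 3. Here too the groups did not overlap, with nanoplastic mouse 3 the lowest and a mean 12% lower in nanoplastic mice (log2 fold change -0.18 with SE 0.065 and edgeR adjusted p = 0.597). These 3 enzymes act in sequence, and 0 of them passed the adjusted test. Their means differed between the groups by more than the SD of either group. They were named for their unadjusted p and lack of overlap, so that difference is not separate evidence. Without nanoplastic mouse 1 and vehicle mouse 3 the log2 fold changes were -0.25 for Pgk1, -0.18 for Pgam1 and -0.21 for Eno1.

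Their neighbours in the pathway overlapped between the groups. Gapdh, the glyceraldehyde phosphate dehydrogenase just upstream of Pgk1 and often used as a reference transcript, measured 603, 643 and 702 CPM in nanoplastic mice 1, 2 and 3, against 711, 699 and 702 CPM in vehicle mice 1, 2 and 3. Nanoplastic mouse 3 lay within the vehicle range (log2 fold change -0.12 with SE 0.073 and edgeR adjusted p = 0.743), and without nanoplastic mouse 1, the lowest of the 6, the log2 fold change was -0.064. Aldoa, the aldolase A that splits fructose bisphosphate, measured 548, 553 and 545 CPM in nanoplastic mice and 555, 560 and 537 CPM in vehicle mice in mouse order (log2 fold change -0.0054 with SE 0.061 and edgeR adjusted p = 0.99). Its 95% interval in log2 fold change was -0.14 to 0.13. Tpi1, triose phosphate isomerase, averaged 554 ± 28 CPM in nanoplastic and 565 ± 29.2 CPM in vehicle mice (SD, n = 3 each). Pkm, the pyruvate kinase of most tissues, averaged 198 ± 16.6 CPM in nanoplastic and 194 ± 12.5 CPM in vehicle mice (SD, n = 3 each; log2 fold change 0.03 with SE 0.077 and edgeR adjusted p = 0.951). Pklr, the liver and red cell pyruvate kinase, averaged 12.6 ± 0.97 CPM in nanoplastic and 12.2 ± 0.374 CPM in vehicle mice (SD, n = 3 each), and made up 9.45% ± 1.11 of the pyruvate kinase transcripts per kilobase in nanoplastic and 8.85% ± 0.689 in vehicle mice (SD, n = 3 each).

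**Figure D3:**
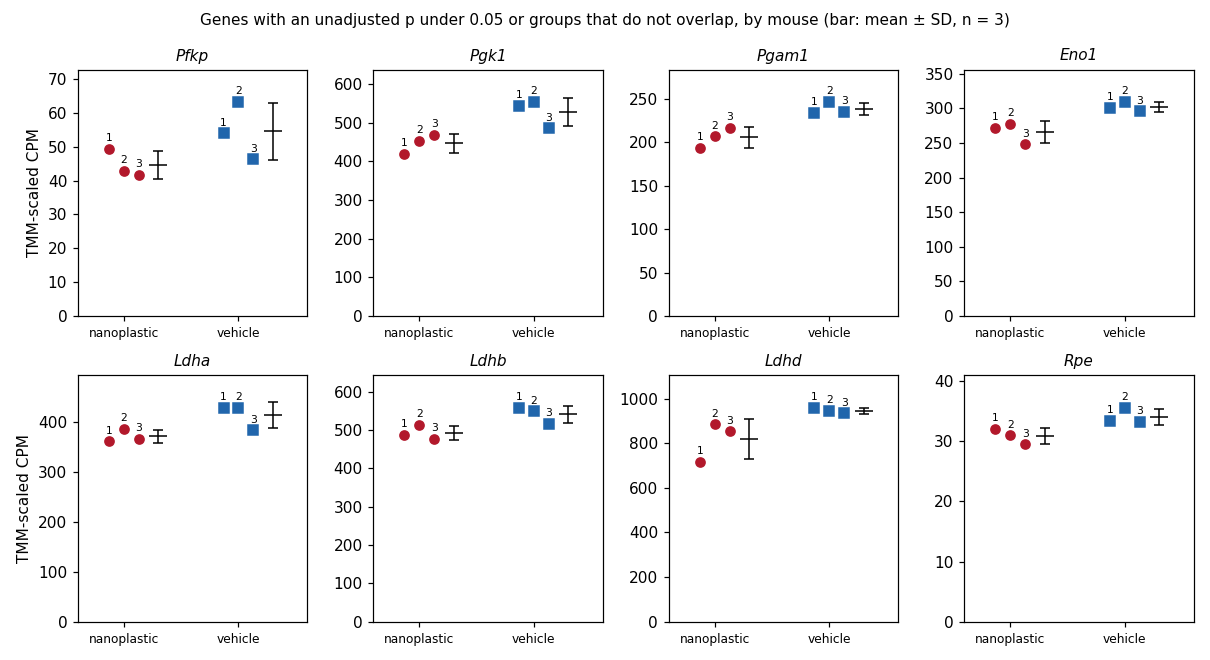
TMM-scaled CPM in each mouse (numbered points) for the 8 genes with an unadjusted p under 0.05 or with groups that do not overlap, nanoplastic left (circles) and vehicle right (squares); bars are mean ± SD over 3 mice and every axis starts at 0. Pgk1 lies between 419.7 and 468 CPM in nanoplastic and between 485 and 554 CPM in vehicle mice.

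All 3 lactate genes had lower means in nanoplastic kidneys, with log2 fold changes from -0.21 to -0.14. Ldha (ENSMUSG00000063229), the muscle-type subunit of L-lactate dehydrogenase, measured 360.5, 386 and 365 CPM in nanoplastic mice 1, 2 and 3, against 428, 428 and 383 CPM in vehicle mice 1, 2 and 3. The highest nanoplastic mouse, mouse 2, was just above the lowest vehicle mouse, mouse 3 (log2 fold change -0.16 with SE 0.069 and edgeR adjusted p = 0.67). Without vehicle mouse 3 the log2 fold change of Ldha was -0.21, and without nanoplastic mouse 1 it was -0.14. Ldhb, the heart-type subunit, measured 488, 513 and 477 CPM in nanoplastic mice 1, 2 and 3, against 558, 548 and 516 CPM in vehicle mice 1, 2 and 3. Its groups did not overlap, by a margin of less than the SD of either group (log2 fold change -0.14 with SE 0.066 and edgeR adjusted p = 0.691). The share of the muscle-type subunit overlapped between the groups, with Ldha at 33.4% ± 0.218 of both per kilobase in nanoplastic and 34.5% ± 1.06 in vehicle mice (SD, n = 3 each). Ldhd (ENSMUSG00000031958), the mitochondrial enzyme that oxidises D-lactate, measured 717, 885 and 854 CPM in nanoplastic mice 1, 2 and 3, against 959, 944 and 933 CPM in vehicle mice 1, 2 and 3. Nanoplastic mouse 1 was the lowest by a wide margin (log2 fold change -0.21 with SE 0.086 and edgeR adjusted p = 0.638), and without that mouse the log2 fold change of Ldhd was -0.12 with an unadjusted edgeR p of 0.101.

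Blood cells, immune cells and the distal nephron carry glycolytic transcripts too. The summed level of 4 macrophage markers was 80.8 to 86.5 CPM in nanoplastic and 89.1 to 98.5 CPM in vehicle mice, without overlap, and that of 5 erythrocyte markers, of cells that live on glycolysis, was 488 to 626 CPM in nanoplastic and 579 to 861 CPM in vehicle mice. Both lists had all their genes tested, 4 of 4 and 5 of 5, and none at 0. All 5 erythrocyte markers had a lower mean in nanoplastic mice at an unadjusted edgeR p under 0.05, beside 3.61% of all genes tested in that direction. Their log2 fold changes ran from -0.59 to -0.39, with the lowest adjusted p at 0.394. These differences were larger than in any of the lower glycolysis or lactate genes. Pklr, the liver and red cell pyruvate kinase, overlapped between the groups (log2 fold change 0.039). All 4 macrophage markers had log2 fold changes below 0, 1 of them at an unadjusted edgeR p under 0.05. In the distal nephron, 4 thick limb markers summed to 4112 to 4952 CPM in nanoplastic and 4780.4 to 5912 CPM in vehicle mice, with 3 of 4 below 0. The lowest of the 4 was Umod, the uromodulin gene of that segment, without overlap (log2 fold change -0.33 with SE 0.11 and edgeR adjusted p = 0.588). It measured 3208, 3303 and 2836 CPM in nanoplastic mice and 3961, 4341 and 3410 CPM in vehicle mice in mouse order. The others overlapped, with log2 fold changes of 0.02 for Slc12a1, -0.018 for Cldn16 and -0.041 for Kcnj1. The sum of 4 distal convoluted tubule markers was 743 to 1046 CPM in nanoplastic and 797 to 1033 CPM in vehicle mice, with 2 of 4 below 0. The lowest was Calb1, a calcium-binding protein of that segment (log2 fold change -0.27 with SE 0.10 and edgeR adjusted p = 0.6). It measured 211, 222 and 269.7 CPM in nanoplastic mice and 253, 297 and 296 CPM in vehicle mice in mouse order. The others had log2 fold changes of -0.18 for Pvalb, 0.062 for Slc12a3 and 0.16 for Trpm6. Of 5 principal cell markers, 4 were above 0, with log2 fold changes from -0.14 to 0.65. Among them Aqp3 was higher in nanoplastic mice without overlap (log2 fold change 0.24 with SE 0.079 and edgeR adjusted p = 0.579). Of 5 intercalated cell markers, 2 were above 0 and 3 below. Outside the tubule, all 5 fibroblast and mural cell markers were below 0. The lowest was Col1a1, without overlap (log2 fold change -0.69 with SE 0.098 and edgeR adjusted p = 0.156, the lowest of all genes tested). All 4 podocyte markers were below 0, with log2 fold changes from -0.14 to -0.018. Of 4 endothelium markers, 2 were above 0 and 2 below. Skeletal muscle, which is rich in these enzymes, left little trace: 5 markers summed to 0.459 to 0.69 CPM in nanoplastic and 0.382 to 0.546 CPM in vehicle mice, of which 1 had enough counts to be tested, with Myh4 at 0 counts in all 6 libraries. The part of these cells in the lower glycolysis and lactate values was not tested.

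At the entry of glycolysis the direction was mixed, with 5 of 9 genes above 0 and 4 below, although 8 were above 0 with library size alone. Pfkp (ENSMUSG00000021196), the platelet-type phosphofructokinase, which sets the committed step, measured 49.4, 42.9 and 41.7 CPM in nanoplastic mice 1, 2 and 3, against 54, 63.3 and 46.3 CPM in vehicle mice 1, 2 and 3. The groups overlapped, since nanoplastic mouse 1 was above vehicle mouse 3, and vehicle mouse 2 was the highest (log2 fold change -0.29 with SE 0.11 and edgeR adjusted p = 0.611). Those are the libraries with fat cell transcripts, and without them the log2 fold change of Pfkp was -0.47, with an edgeR adjusted p of 0.11, and 0 of the 34 genes passed the adjusted test, beside 0.165% of all genes. Without vehicle mouse 2 it was -0.17. Pfkl, the liver type, averaged 54.3 ± 5.86 CPM in nanoplastic and 50.2 ± 2.35 CPM in vehicle mice (SD, n = 3 each), with a log2 fold change of 0.12, and of 0.043 without nanoplastic mouse 1, and Pfkm, the muscle type, 35.7 ± 2.86 CPM in nanoplastic and 36.4 ± 0.304 CPM in vehicle mice (SD, n = 3 each).

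The make-up of phosphofructokinase was compared as shares of the summed level per kilobase. Pfkp held 33.8, 34.7 and 35% in nanoplastic mice 1, 2 and 3, against 37.6, 43.6 and 35.9% in vehicle mice 1, 2 and 3. Pfkl held 38, 35.1 and 35.4% in nanoplastic mice, against 33.8, 31.3 and 34.2% in vehicle mice. The groups overlapped in neither, with Pfkp lower and Pfkl higher in nanoplastic mice, while the shares of Pfkm overlapped. A two-sided exact permutation test gave p = 0.1 for Pfkp, the smallest that 3 against 3 mice allow, and an adjusted p of 0.6 over the 16 isoform shares examined.

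**Figure D4:**
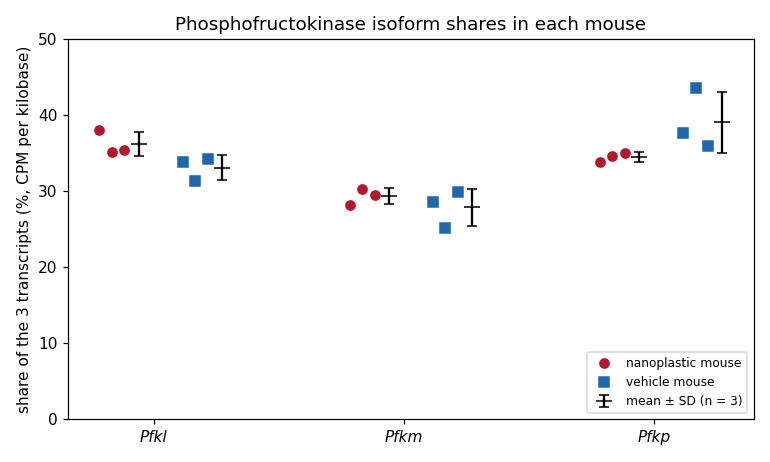
Share of Pfkl, Pfkm and Pfkp in their summed level (percent, from CPM per kilobase) in each nanoplastic mouse (circles) and vehicle mouse (squares); bars are mean ± SD over 3 mice. Pfkp averaged 34.5% in nanoplastic and 39% in vehicle mice.

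The largest positive log2 fold changes among the 34 belonged to Hk2, Pfkfb1 and Pfkfb3, and all 3 were smaller without nanoplastic mouse 1. Hk2, the insulin-responsive hexokinase, had 76, 27 and 13 counts in nanoplastic mice 1, 2 and 3 and 12, 22 and 28 counts in vehicle mice 1, 2 and 3. Nanoplastic mouse 1 was the highest and the groups otherwise overlapped (log2 fold change 0.98 with SE 0.53 and edgeR adjusted p = 0.717), with a log2 fold change of 0.11 without that mouse. Pfkfb3, the inducible enzyme that makes an allosteric activator of phosphofructokinase, measured 18.4, 10.4 and 8.11 CPM in nanoplastic mice 1, 2 and 3, against 9.43, 9.02 and 10.2 CPM in vehicle mice 1, 2 and 3. Its log2 fold change was 0.38 with all mice and -0.032 without nanoplastic mouse 1. Pfkfb1, its liver isoform, had 38, 24 and 14 counts in nanoplastic mice and 21, 10 and 16 counts in vehicle mice, and a log2 fold change of 0.78 with all mice and 0.43 without nanoplastic mouse 1. Pfkfb2, the most abundant of these isoforms per kilobase, averaged 28.2 ± 0.729 CPM in nanoplastic and 26.3 ± 3.03 CPM in vehicle mice (SD, n = 3 each). Hk1, the hexokinase of most tissues, measured 76.2, 74.7 and 62 CPM in nanoplastic mice and 73.4, 75.3 and 67 CPM in vehicle mice in mouse order. Gpi1, glucose phosphate isomerase, measured 232, 249 and 244 CPM in nanoplastic mice and 249, 248 and 246 CPM in vehicle mice in mouse order, and both overlapped between the groups.

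**Figure D5:**
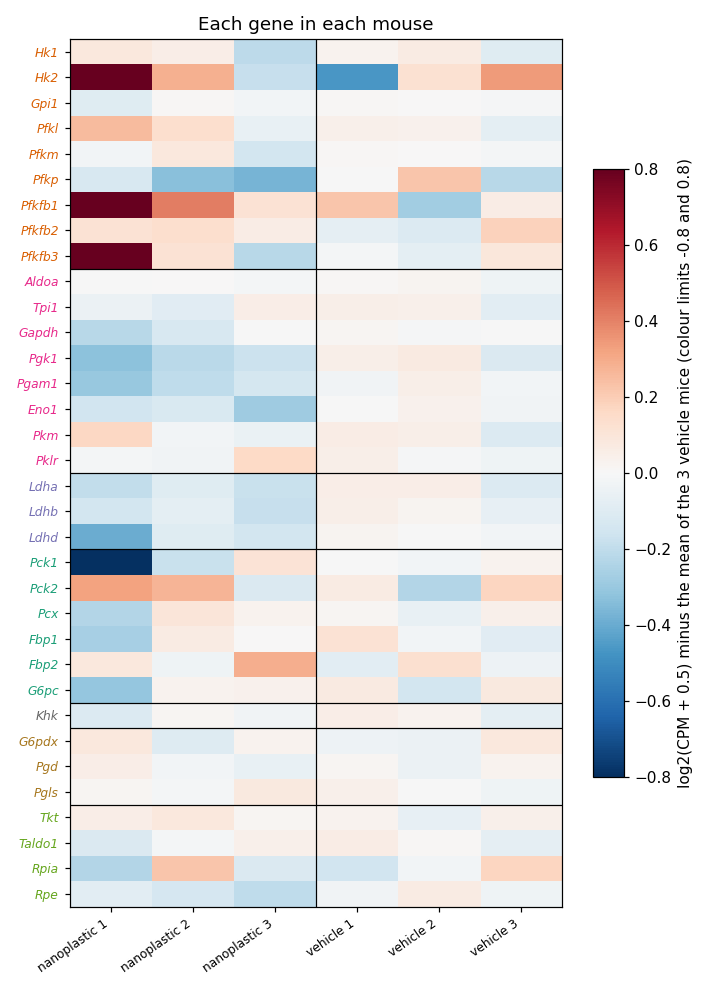
Each of the 34 genes (down, grouped by role) in each mouse (across, nanoplastic left of the line, vehicle right), as log2(CPM + 0.5) minus the mean of the 3 vehicle mice; blue is lower and red higher, and values beyond the colour limits take the end colour. Nanoplastic mouse 1 holds the darkest cells, Hk2, Pfkfb1, Pfkfb3 and Pck1, while the rows for Pgk1, Pgam1, Eno1 and the lactate genes are blue in all 3 nanoplastic mice.

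The gluconeogenic genes of the proximal tubule had 4 of 6 log2 fold changes below 0 (3 of 6 with library size alone) and a median of -0.047, and 0 of 6 at an unadjusted p under 0.05. Pck1 (ENSMUSG00000027513), the cytosolic PEP carboxykinase that commits carbon to glucose, measured 594, 934 and 1139 CPM in nanoplastic mice 1, 2 and 3, against 1054, 1041 and 1079 CPM in vehicle mice 1, 2 and 3. Nanoplastic mouse 1 was far below every other mouse and nanoplastic mouse 3 was the highest of the 6 (log2 fold change -0.25 with SE 0.18 and edgeR adjusted p = 0.774). Without nanoplastic mouse 1 the log2 fold change was -0.028, and without nanoplastic mouse 3 it was -0.47. In nanoplastic mouse 1 the other abundant enzymes were also at their lowest. Fbp1 measured 755, 949.6 and 910.3 CPM in nanoplastic mice 1, 2 and 3, against 983, 894 and 853 CPM in vehicle mice 1, 2 and 3, and nanoplastic mouse 1 was the only nanoplastic mouse below the vehicle range (log2 fold change -0.063 with SE 0.10 and edgeR adjusted p = 0.898). Without that mouse the log2 fold changes were 0.033 for Fbp1, 0.028 for G6pc and 0.062 for Pcx. G6pc, the phosphatase that releases free glucose, measured 377, 477 and 479 CPM in nanoplastic mice and 491, 423 and 494 CPM in vehicle mice in mouse order. Pcx, pyruvate carboxylase, measured 581, 729 and 695 CPM in nanoplastic mice and 691, 656 and 702 CPM in vehicle mice in mouse order, and its interval was -0.23 to 0.16. Over these 6 genes the median deviation in log2(CPM + 0.5), taken against vehicle, came to -0.25, 0.045 and 0.029 for nanoplastic mice 1, 2 and 3, and to 0.041, -0.041 and 0.034 for vehicle mice 1, 2 and 3. The median log2 fold change of the 6 was 0.048 without nanoplastic mouse 1. The same mouse had the lowest summed level of the 12 proximal tubule markers, 19986 CPM. In that mouse Slc5a12, at 394 CPM, lay above the vehicle range of 358 to 373 CPM, and Slc5a2 and Miox lay within theirs. The other markers of the list were each lowest in that mouse. Between the groups, 8 of the 12 had log2 fold changes below 0 and 4 above. Slc5a12 was higher in nanoplastic mice without overlap (log2 fold change 0.19 with SE 0.073 and edgeR adjusted p = 0.611). Nanoplastic mouse 1 also had the highest sum of the principal cell markers, with Aqp2, Avpr2 and Hsd11b2 each at their highest there. The part of this in its gluconeogenic levels was not tested.

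The second isoforms of both enzymes were a small share of the total. Pck2, the mitochondrial PEP carboxykinase, averaged 13.4 ± 2.2 CPM in nanoplastic and 11.9 ± 1.75 CPM in vehicle mice (SD, n = 3 each; log2 fold change 0.18, and 0.093 without nanoplastic mouse 1), and made up 1.6% ± 0.831 of PEP carboxykinase per kilobase in nanoplastic and 1.14% ± 0.172 in vehicle mice. Fbp2, the muscle fructose bisphosphatase, averaged 11.7 ± 1.41 CPM in nanoplastic and 10.7 ± 0.894 CPM in vehicle mice (SD, n = 3 each), with a share of 1.47% and 1.29% of fructose bisphosphatase per kilobase in nanoplastic and vehicle mice. Khk, ketohexokinase, through which fructose enters, measured 293, 320.3 and 311 CPM in nanoplastic mice and 328, 323 and 299 CPM in vehicle mice in mouse order (log2 fold change -0.04 with SE 0.066 and edgeR adjusted p = 0.91).

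The pentose phosphate genes had log2 fold changes from -0.14 to 0.051, 3 of 7 above 0 (6 of 7 with library size alone), and 0 of 7 at an unadjusted p under 0.05. In the oxidative branch, G6pdx, the glucose phosphate dehydrogenase that commits glucose to NADPH production, averaged 21.8 ± 1.48 CPM in nanoplastic and 21.7 ± 1.18 CPM in vehicle mice (SD, n = 3 each), with a 95% interval in log2 fold change of -0.18 to 0.19. Pgd, which makes further NADPH, measured 39.5, 37.4 and 36.4 CPM in nanoplastic mice and 38.4, 36.9 and 38.8 CPM in vehicle mice in mouse order. Pgls, the lactonase between them, measured 29.6, 29 and 31 CPM in nanoplastic mice and 30.1, 29.2 and 28.6 CPM in vehicle mice in mouse order. The groups overlapped in all 3 genes of the branch.

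In the non-oxidative branch, which returns pentoses to glycolysis, Tkt, transketolase, measured 181, 185 and 177 CPM in nanoplastic mice and 179, 167 and 179.6 CPM in vehicle mice in mouse order. Taldo1, transaldolase, measured 162, 173 and 180 CPM in nanoplastic mice and 182, 177 and 167 CPM in vehicle mice in mouse order, and both sets overlapped. Rpe, the epimerase of ribulose phosphate, measured 32, 31 and 29.4 CPM in nanoplastic mice 1, 2 and 3, against 33.4, 35.6 and 33.1 CPM in vehicle mice 1, 2 and 3. It was the only gene of the pathway whose groups did not overlap (log2 fold change -0.14 with SE 0.071 and edgeR adjusted p = 0.696). Rpia, ribose phosphate isomerase, averaged 10.9 ± 1.93 CPM in nanoplastic and 11.2 ± 1.35 CPM in vehicle mice (SD, n = 3 each).

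Further genes around these pathways were listed by name as well. Of 22 other glycolysis and gluconeogenesis genes, 16 were tested, 0 passed the adjusted test, and the median log2 fold change was -0.016. Aldoc, the brain aldolase, had an unadjusted p under 0.05. It measured 14.6, 13 and 7.64 CPM in nanoplastic mice and 9.9, 8.58 and 6.46 CPM in vehicle mice in mouse order (log2 fold change 0.51 with SE 0.22 and edgeR adjusted p = 0.662), and nanoplastic mouse 3 lay within the vehicle range. Without nanoplastic mouse 1 the log2 fold change of Aldoc was 0.33 with an unadjusted edgeR p of 0.145, and without vehicle mouse 3 as well it was 0.18. Of 12 other pentose phosphate, fructose and polyol genes, 10 were tested and 0 passed. Tkfc, the triokinase that follows Khk in fructose breakdown, measured 82.2, 91.1 and 91.2 CPM in nanoplastic mice 1, 2 and 3, against 101, 101 and 100.1 CPM in vehicle mice 1, 2 and 3. Its groups did not overlap (log2 fold change -0.19 with SE 0.064 and edgeR adjusted p = 0.571), whereas those of Khk did, and its log2 fold change was -0.14 without nanoplastic mouse 1. Akr1b3, the aldose reductase that makes sorbitol in the renal medulla, measured 260.4 CPM in nanoplastic mouse 1, 55.4 and 48.8 CPM in the other nanoplastic mice, and 69.4, 77.2 and 53.4 CPM in vehicle mice. Its log2 fold change was 0.87 with all mice (edgeR adjusted p = 0.727) and -0.35 without nanoplastic mouse 1 (edgeR adjusted p = 0.594). Without vehicle mouse 3 as well it was -0.49 (edgeR adjusted p = 0.095). Akr1b3 was singled out after its values were seen.

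Near-identical copies can share reads with several of these genes. Copies that carry a member's name in the annotation held at most 0.864% of the count of their gene, reached by a Pgam1 pseudogene, and summing them gave log2 fold changes of -0.22 for Pgam1, -0.18 for Eno1 and -0.16 for Ldha. Copies named otherwise were not summed.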

How the data were processed

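The deposited files are 1 gene table per library, with RSEM expected counts, TPM and effective lengths, per the file headers. RSEM 1.3.3, STAR 2.7.9a, Trim Galore 0.6.6 and FastQC, as well as build GRCm39, are named per the submitters' processing notes; an annotation release is not given in what was used here. The expected counts deposited by the authors are not normalized, and RSEM splits reads that fit several genes. TPM, deposited by the authors, served only in an alternative. Whether the library kit keeps the strand is not given, so overlapping antisense genes cannot be told apart.

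Symbols came from GENCODE vM21 (51884 genes by ID, 246 by transcript). Promoters came from RefSeq on GRCm38.p6, another build than the files'. Coordinates are therefore given only for the printed promoter stretches, on GRCm38.p6. Expected counts were rounded, filtered with filterByExpr (minimum count 10) and scaled by TMM, and edgeR 4.0.16 served for the test in R 4.3.3 (glmQLFit with legacy = FALSE, glmQLFTest, group as the only term; Benjamini-Hochberg, threshold 0.05). SE is the log2 fold change over the root of F. The median distance from a log2 fold change to the end of its 95% interval was 0.281 over all genes. The test was tried on simulated counts. Alternatives used DESeq2 1.42.0, limma 3.58.1, other scalings, no filter, TPM rescaled without the 7SL RNA genes, which took 55.5% to 59.4% of it (log2 with a pseudocount of 0.5, limma), a replicate block and left-out libraries.

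The genes and lists were chosen with earlier results of these data known. By rule, each mouse's value is given for those of the 34 with an unadjusted p under 0.05, without overlap, or among the 2 highest per kilobase in their role, and other pathway genes are named by the same p or overlap.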

Additional observations from a re-analysis of the deposited data

How the results depend on the processing

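Over the 16 alternatives tried for each of the 34 genes, 0 genes passed the adjusted test (DESeq2 gave Hk2 and Pfkfb1 no adjusted p), and the lowest adjusted p was 0.11, for Pfkp without vehicle mouse 3 and nanoplastic mouse 1. Of the 34, 17 kept the sign of their log2 fold change in all 16 alternatives, among them Pfkp, Pgk1, Pgam1, Eno1, Ldha, Ldhb, Ldhd and Rpe, and 17 changed it in at least 1. Pgk1 and Pgam1 had an unadjusted p under 0.05 in all 16, Eno1 in 12, Pfkp and Ldhd in 10 and Ldha in 9. These genes were named by that p with all mice, and the alternatives use the same mice or a part of them. The counts therefore show dependence on processing and are not separate evidence. The count of the 34 at an unadjusted p under 0.05 was 3 with library size alone, all lower, and 3 with TPM rescaled without the 7SL RNA genes and tested by limma, which changes the unit, the genes scaled on and the tool together, and of these 2 were lower. Leaving out 1 mouse gave 2 to 10, with 2 to 6 lower. For library size alone, TPM and part of the left-out mice no share over all genes is given, so these counts have no background here. The share of all genes below 0 was 36.2% with library size alone and 41.2% with TPM. Over all genes, edgeR called 0, DESeq2 58, edgeR without vehicle mouse 3 and nanoplastic mouse 1 30, and edgeR without 1 mouse 0 to 10. The pentose phosphate median of -0.0087 was 0.036 with library size alone, a scaling that moved the median of all genes by 0.045; the glycolysis median over 17 genes was -0.017 and 0.03 there. With the replicate number as a block, the pairing left 6 genes at an unadjusted p under 0.05, 5 of them lower, and changed no adjusted call. That count too has no share over all genes beside it. The deviations of same-numbered mice from their group means had correlations of 0.054, -0.04 and 0.121 across genes, and mice did not all correlate best with their own number, so the numbers were not taken to pair them. At 12 to 76 counts per library, the 95% interval of Hk2 ran over log2 fold changes of -0.20 to 2.16 with all mice.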
